A study of Gallus gallus with 4 samples.

Results

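The regions described here are 2808 stretches of open chromatin that lie away from gene starts and carried more signal in immune nuclei than in other nuclei of the embryonic day 13 (E13) chicken lung. They were selected on measured values, out of 87491 peaks in the E13 peak list. Peaks listed at a promoter were left out, and 67549 others with a gene start within 50000 bp, or inside a gene, remained. Immune nuclei were those with at least 500 detected genes, at least 4 RNA molecules (UMIs) of PTPRC, CD83, IL1R2, IFI30 and CD80 together, and at most 2 UMIs of EPCAM and CDH1. The rest were nuclei with at least 500 genes and 0 UMIs of the 5 genes. ATAC counts were summed over each side, scaled to CPM (counts per 1e6 of all peak counts of that side), and 1 was added. A peak became a member when it had at least 30 counts in immune nuclei and a ratio of immune over rest of at least 3. Of the 67549 peaks, 10059 had 30 counts or more and were tested in this sense, and 2808 of them (27.9%) reached the ratio, which is a property of the rule and not a finding. The other 57490 peaks had too few counts to be judged.

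The nuclei came from lungs of wild-type chicken embryos. Dissociated lung cells were stained and sorted into the main populations, and similar amounts of each were pooled for a multiome run, which reads nuclear RNA and open chromatin from the same nucleus. At embryonic day 20 (E20), 1 library of sorted epithelial cells and 1 library of lung cells depleted of immune cells (CD45neg) were read for RNA alone. Every group is 1 library, so there is no replicate, no test was made, and intervals cover no more than counting error.

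Enhancers are stretches of DNA that bind transcription factors and raise the activity of a gene that can lie far away, and the chromatin of an active enhancer is open to the enzyme used in ATAC-seq. In blood cells, enhancers differ more between cell types than promoters do, and many are bound by factors of the ETS, RUNX and C/EBP families. Lung macrophages and their precursors enter the embryonic lung from the circulation, take up debris and dying cells, and present antigen.

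The 488 immune nuclei held 2336020 ATAC counts and the 5971 rest nuclei 38166759. The median nucleus had 3395.5 ATAC counts and 4619.5 UMIs on the immune side, and 3318 ATAC counts and 4161 UMIs on the rest side. The median mitochondrial share of UMIs was 53.1% in immune nuclei and 41.9% in rest nuclei. The member peaks held 8.29% of counts in the 67 immune nuclei with at most 40% mitochondrial UMIs, and 8.22% in the other 421. Both groups were part of the sums that chose the members, so these shares are a description. They do not show how the members depend on the mitochondrial share. In the members, 73.4% of the nonzero entries of an immune nucleus were exactly 2 and 16.6% were 1, so counts came mostly in pairs and are not independent molecules. The intervals given here treat each count as independent and are therefore too narrow even for counting error. No cell barcode was shared between the E13 run and either E20 library, and 106 were shared between the E20 libraries.

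The immune label was set against marker genes that the rule did not use. Over 26 other immune genes the summed RNA level was 3197 CPM in immune nuclei and 123 CPM in rest nuclei. Of the 26, 24 had 10 CPM or more and were at least 2-fold higher in immune nuclei, against 11.1% of all genes with 10 CPM or more. CD86 was higher too, with 9.55 CPM in immune and 0.0538 CPM in rest nuclei, but did not reach 10 CPM. MRC1, also among the 26, went the other way, with 5.14 CPM in immune and 9.87 CPM in rest nuclei. STAB1, a scavenger receptor of macrophages in mammals and outside the 26, had 1027 CPM in immune and 16.7 CPM in rest nuclei. CSF1R, the receptor for the macrophage growth factor, had 241 CPM in immune and 8.23 CPM in rest nuclei. Lymphoid markers summed to 150 CPM in immune and 203 CPM in rest nuclei, and 6 of the 20 listed genes had 0 UMIs in immune nuclei. The sum hides differences between genes. BLK and BANK1, 2 of the 20, had 10 CPM or more and were at least 2-fold higher in immune nuclei. EBF1 and BCL11B were higher in rest nuclei, with 130 and 42.2 CPM there and 59.5 and 8.08 CPM in immune nuclei. Thrombocyte markers summed to 344 CPM in immune and 290 CPM in rest nuclei, granulocyte markers to 55.9 CPM in immune and 5.03 CPM in rest nuclei, and erythroid markers to 309 CPM in immune and 334 CPM in rest nuclei. Only 2 of the 8 granulocyte genes, MMP9 (30.9 CPM) and RSFR (18.7 CPM), had 10 CPM or more and were at least 2-fold higher in immune nuclei. CATHL2 and LECT2 had 0 UMIs there, and EPX was higher in rest nuclei. Of 11 thrombocyte genes, only F13A1 was higher by these limits. Epithelial markers, with EPCAM and CDH1 that the rule limited among them, summed to 532 CPM in immune and 2903 CPM in rest nuclei. Mesenchymal markers summed to 625 CPM in immune and 1229 CPM in rest nuclei. Endothelial markers differed less, with 300 CPM in immune and 384 CPM in rest nuclei. Over all genes with 10 CPM or more, the median log2 ratio of immune over rest nuclei was -0.45. The list sums were not adjusted for this shift, so small deficits such as those of the endothelial and lymphoid sums are not particular to these lists.

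Within the members the ratio ran from 3.002 to 50.3, with a median of 5.36. The ratio was between 3 and 5 in 1265 members, between 5 and 10 in 958, between 10 and 20 in 454 and above 20 in 131. The median member had 60 counts in immune nuclei, or 25.7 CPM, and 131 counts in rest nuclei, or 3.43 CPM. Median signal on the immune side was close to that of tested peaks under the ratio, at 21.0 CPM, whereas on the rest side it was 3.43 CPM for members and 15.8 CPM for the others. Both limits of the rule act on these values, so the low rest signal of the members follows from their selection.

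**Figure D1:**
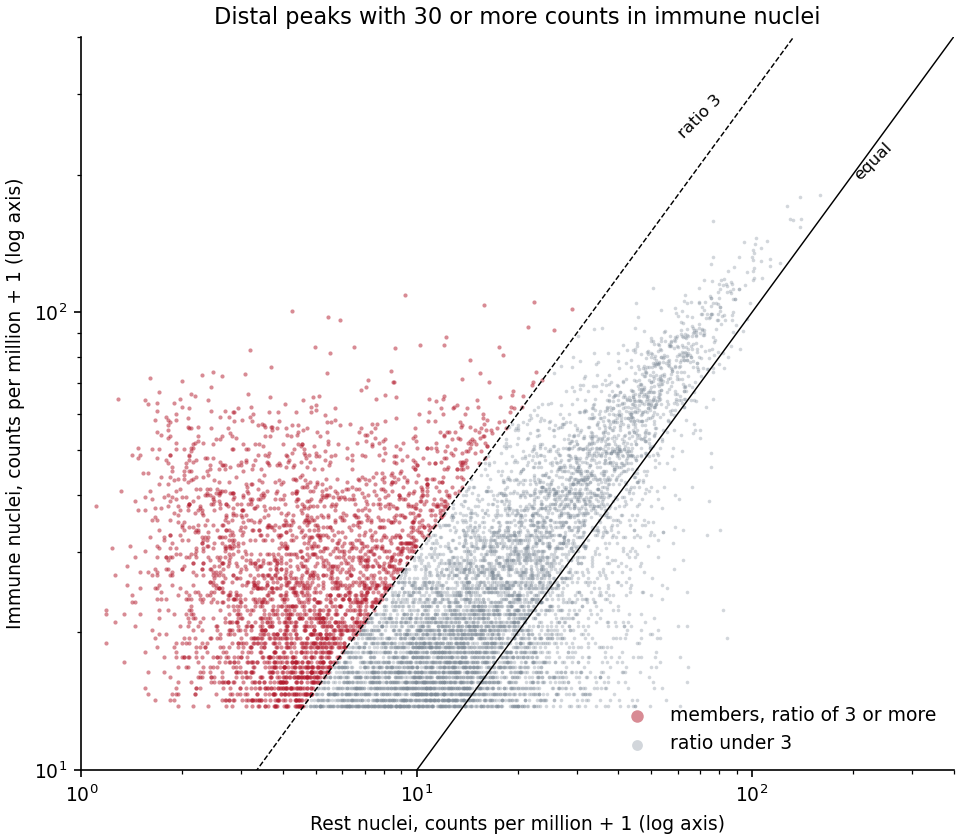
ATAC signal of the 10059 tested distal peaks, as CPM plus 1 on log axes, in immune nuclei (vertical) against rest nuclei (horizontal). The 2808 members (red) lie left of the dashed line at a ratio of 3, and the solid line marks equal signal.

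The member with the highest ratio, chr15:7178851-7179734 in galGal6, was annotated to ANKRD13A, a ubiquitin-binding protein. It had 149 counts in immune nuclei, or 63.8 CPM (54.0 to 74.9, exact Poisson), and 11 counts in rest nuclei, or 0.288 CPM (0.144 to 0.516). The signal came from 70 of the 488 immune nuclei and 8 of the 5971 rest nuclei. Next was chr2:60683320-60684209, whose annotated distance to CD83 was -8711 bp. CD83 is a surface protein of mature dendritic cells and other antigen-presenting cells, and its RNA helped to define the immune nuclei. This peak had 166 counts in 79 immune nuclei, or 71.1 CPM (60.7 to 82.7), and 23 counts in 10 rest nuclei, or 0.603 CPM (0.382 to 0.904). Counts per nucleus are sparse, and even these peaks were seen in only 14.3% and 16.2% of immune nuclei.

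Among members whose gene has a symbol, the other 13 of the 15 highest ratios ran from 31.2 to 40.01. The member ranked the third over all, at 41.5, and some others between these had no gene symbol. MAP3K8, the kinase that relays Toll-like receptor signals to ERK, had a member 21774 bp from its start with 163 immune and 38 rest counts. TNFAIP3, a ubiquitin-editing brake on NF-kB, had one 24030 bp away with 143 immune and 38 rest counts. For CX3CR1, the fractalkine receptor of monocytes and macrophages in mammals, the peak lay inside the gene with 146 immune and 34 rest counts. The RNA of these 3 genes was more abundant in immune nuclei. MAP3K8 had 103 CPM in immune and 2.42 CPM in rest nuclei, TNFAIP3 276 CPM in immune and 11.9 CPM in rest nuclei, and CX3CR1 12.1 CPM in immune and 0.349 CPM in rest nuclei. In the E20 epithelial library the log2 ratios of immune over rest cells were 4.32 for MAP3K8, 3.08 for TNFAIP3 and 5.76 for CX3CR1.

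Not every gene beside a strong member had at least 2-fold more RNA on the immune side. NUMB, an inhibitor of Notch signalling, had a member of ratio 31.3 with 138 immune and 35 rest counts, and its RNA was 133 CPM in immune and 131 CPM in rest nuclei. ZSWIM8 had a member of ratio 31.2, and 16.2 CPM of RNA in immune and 17.9 CPM in rest nuclei. One peak of ratio 32.9 lay inside DGKD, a diacylglycerol kinase, and -8249 bp from PROC, the anticoagulant protein C. DGKD had 52.2 CPM in immune and 32.8 CPM in rest nuclei, and PROC 1.47 CPM in immune and 9.46 CPM in rest nuclei. The median log2 ratio of immune over rest nuclei was -0.45 over all genes with 10 CPM or more. NUMB (0.02), ZSWIM8 (-0.14) and DGKD (0.65) lay above this median, and PROC (-2.08) below it. The annotation records the position of a peak, and which gene it acts on was not tested.

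By immune counts, the leading member was chr2:66115594-66116484, at -47544 bp from SLC22A23, a gene of the organic ion transporter family. It had 253 counts in 105 immune nuclei, or 108 CPM, and 314 counts in 161 rest nuclei, or 8.23 CPM. The next 4 were annotated to DUSP6, gga-mir-1617, KTN1 and GFOD1, with 244, 240, 235 and 233 immune counts and 818, 569, 1071 and 124 rest counts in that order. The ratios of these 4 peaks ran from 3.50 to 23.7, and that of the SLC22A23 peak was 11.8.

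Among the 5 genes that defined the immune nuclei, 4 had a tested distal peak and 3 had members. All 4 tested peaks of CD83 were members, at distances of -8711, -1576, 6006 and 12998 bp. Their immune signal was 71.1, 23.1, 31.2 and 31.2 CPM, and their rest signal 0.603, 4.82, 9.54 and 7.44 CPM, in that order. So 1 peak of CD83 was nearly closed in rest nuclei and 3 were open there at a low level. IL1R2, a decoy receptor for interleukin 1, had 3 members of 4 tested peaks with ratios of 3.37 to 17.3. The strongest of these also lies inside MAP4K4, a kinase gene whose RNA was 180 CPM in immune and 259 CPM in rest nuclei. CD80, a ligand that co-stimulates T cells, had 2 members of 4 with ratios of 11.3 and 22.5.

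Of 29 blood transcription factor genes with a tested peak, 17 had a member, against 35.4% of all genes with a tested peak. This comparison, here and for the lists below, takes no account of the number of tested peaks per gene. In 81 pairs of a factor gene and a tested peak, the peak was a member in 40.7%, against 27.9% of all tested peaks. The lists of genes used here were written with earlier results of these data known, so their counts are a description. TFEC, a factor of the MITF family, had a member at chr1:25455046-25455958 with 135 immune counts (57.8 CPM) and 41 rest counts (1.07 CPM). ELF1 and FLI1, both of the ETS family, had members of ratio 23.8 and 17.0. RUNX3, BACH1 and NFKB1 had 3 members each, with highest ratios of 13.1, 15.1 and 14.4, and REL, an NF-kB subunit, had 4 members of 5 tested peaks. RNA of the factors was not uniform. TFEC had 153 CPM in immune and 0.134 CPM in rest nuclei, and RUNX3 56.6 CPM in immune and 1.21 CPM in rest nuclei, whereas ELF1 had 167 CPM in immune and 269 CPM in rest nuclei. Of 16 factor genes with a member and at least 10 CPM at E13, 10 were at least 2-fold higher in immune nuclei and 0 at least 2-fold lower, where 11.1% of all genes were higher and 24.7% lower. In the E20 epithelial library 8 of 15 were higher in immune than in rest cells and 0 lower, where 20.1% of all genes were higher and 15.2% lower. Of all 39 factor genes in the data, with or without a member, 17 had 10 CPM or more and were at least 2-fold higher at E13.

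In antigen presentation, 6 of 10 genes with a tested peak had a member, against 35.4% of all genes with a tested peak. By pairs of gene and tested peak, the peak was a member in 50% of 20, against 27.9% of all tested peaks. Among the 6 are CD80 and CD83, which belong to the 5 rule genes. A single peak on chromosome 16, chr16:2573580-2574447, was annotated both to BLB2, a class II beta chain of the chicken MHC, and to BF1, a class I chain. It had 132 immune counts (56.5 CPM) and 168 rest counts (4.40 CPM). Copies of MHC genes are much alike, and how reads were split between them was not checked. BLB2 RNA was 155 CPM in immune and 3.31 CPM in rest nuclei at E13, and 4460 CPM in immune and 17.8 CPM in rest cells at E20. CD74, the invariant chain that guides class II molecules, had a member -1241 bp from its start with a ratio of 4.41. Its RNA was 524 CPM in immune and 22.6 CPM in rest nuclei at E13, and 9205 CPM in immune and 28.9 CPM in rest cells at E20. FLT3, a growth factor receptor of blood progenitors and dendritic cells in mammals, had a member of ratio 3.50 without a UMI in either side at E13.

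Among cytokines and their receptors, 13 of 22 genes with a tested peak had a member, against 35.4% of all genes with a tested peak. By pairs of gene and tested peak, the peak was a member in 46.8% of 47, against 27.9% of all tested peaks. CSF1R had 1, 3283 bp from its start, with 136 immune counts (58.2 CPM) and 67 rest counts (1.76 CPM). CCL4, a chemokine that attracts monocytes in mammals, had 3, the strongest with 133 immune counts (56.9 CPM) and 85 rest counts (2.23 CPM). The CCL4 symbol stands for more than 1 gene ID in the files, so no RNA value is given. IFNAR1, a subunit of the type I interferon receptor, had 3 members of 3 tested peaks, led by one with 46.2 CPM in immune and 3.14 CPM in rest nuclei. Its RNA was 68.7 CPM in immune and 46.0 CPM in rest nuclei at E13, and 176 CPM in immune and 11.4 CPM in rest cells at E20. Of the 8 genes with a member and 10 CPM or more at E13, 7 were at least 2-fold higher in immune nuclei. At E20 the count was 8 of 8. Over all genes the share higher was 11.1% at E13 and 20.1% at E20. The 13 genes and both RNA counts include IL1R2, 1 of the 5 rule genes, whose RNA was 0 in the rest by definition. Of all 36 genes of the list in the data, with or without a member, 19 had 10 CPM or more and were at least 2-fold higher at E13. CCL4 and IL1R2 were among the 19.

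Pattern receptors and genes for the uptake and breakdown of particles had a tested peak in 14 cases. Of these 9 had a member, against 35.4% of all genes with a tested peak. By pairs of gene and tested peak, the peak was a member in 50% of 24, against 27.9% of all tested peaks. LGMN, a lysosomal protease, had the strongest, chr5:44996823-44997710, with 107 immune counts (45.8 CPM) and 31 rest counts (0.812 CPM). The STAB1 member had 43.2 CPM in immune and 2.52 CPM in rest nuclei. TLR15, a Toll-like receptor of birds, had a member of ratio 12.2, and its RNA was 76.8 CPM in immune and 0.215 CPM in rest nuclei. TLR1A and TLR7 had members of ratio 9.26 and 4.06, and AXL, a receptor for the uptake of dying cells, one of 5.35. AXL RNA was 42.6 CPM in immune and 33.9 CPM in rest nuclei, and TLR1A had 1 UMI in immune nuclei. Of 7 genes with a member and 10 CPM or more, 6 were at least 2-fold higher in immune nuclei at E13, and 7 of 8 at E20. Of all 27 genes of the list in the data, with or without a member, 17 had 10 CPM or more and were at least 2-fold higher at E13. C3AR1, CYBB, ITGB2, MARCO and TLR4, which had no member, were among the 17. The high share was thus not particular to genes with a member. Over all genes the share higher was 11.1% at E13 and 20.1% at E20.

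Genes of leukocyte signalling had a member in 21 of 31 cases, against 35.4% of all genes with a tested peak. By pairs of gene and tested peak, the peak was a member in 56.6% of 83, against 27.9% of all tested peaks. PIK3R5, a regulatory subunit of the phosphoinositide 3-kinase gamma, held 7 members among 9 tested peaks, with ratios of 3.22 to 26.6. The strongest, chr18:2004832-2005750, had 47.9 CPM in immune and 0.838 CPM in rest nuclei. TRAF3, an adaptor of TNF and Toll-like receptors, PRKCB, a protein kinase C, and APBB1IP, which links talin to integrins, had members of ratio 24.2, 23.8 and 23.4. TBXAS1, the thromboxane synthase, and INPP5D, the lipid phosphatase SHIP1, held 4 members each, with highest ratios of 22.05 and 20.3. LYN, a Src family kinase, held 5 members of 5 tested peaks. Of 21 such genes with 10 CPM or more, 17 were at least 2-fold higher in immune nuclei at E13, and 15 of 18 at E20. In both, 0 were lower. Over all genes 11.1% were higher and 24.7% lower at E13, and 20.1% higher and 15.2% lower at E20. Of all 43 genes of the list in the data, with or without a member, 32 had 10 CPM or more and were at least 2-fold higher at E13. PTPRC, a rule gene, was among them. The high share was thus not particular to genes with a member.

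Lists of other cell types are given for comparison, where 35.4% of all genes with a tested peak had a member. Lymphoid markers had a member in 2 of 8 genes (BLK and ZAP70), thrombocyte markers in 3 of 5 (F13A1, ITGB3 and RAP1B), and mesenchymal and endothelial markers in 2 of 5 each. Granulocyte, erythroid and epithelial markers had none in 3, 1 and 4 genes. F13A1, a coagulation factor subunit that mammalian macrophages also make, had 198 CPM of RNA in immune and 14.8 CPM in rest nuclei.

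The members were annotated to 2464 of 6965 genes with a tested peak. Of these genes 1876 had 1 member, 588 (23.9%) had 2 or more and 58 had 4 or more. The share of genes with 2 or more tested peaks was not computed, so these counts are a description. The most, 8 of 10 tested peaks, were held by NRP2, a co-receptor for semaphorins and VEGF, and by CUX1, a homeobox factor. NRP2 members carried 794 counts in immune and 1674 in rest nuclei, with ratios of 3.32 to 12.5, and NRP2 RNA was 235 CPM in immune and 16.3 CPM in rest nuclei. CUX1 members carried 398 counts in immune and 973 in rest nuclei, and CUX1 RNA was 254 CPM in immune and 185 CPM in rest nuclei. WIPF1, which binds the actin regulator WASP, held 6 members of 6 tested peaks and 67.2 CPM of RNA in immune against 6.80 CPM in rest nuclei. TRIB1, a pseudokinase, held 6 of 9. Its RNA was 14.0 CPM in immune and 3.74 CPM in rest nuclei at E13, and 1 UMI was seen in immune cells at E20. CD44, the hyaluronan receptor, held 5 of 7, with ratios of only 3.90 to 5.59, and 943 CPM of RNA in immune against 53.3 CPM in rest nuclei. Among these named genes, the number of members and their ratios thus did not follow the order of their RNA. Over all genes with a member and 10 CPM or more, the share at least 2-fold higher at E13 did rise with the number of members. It was 23.1% with 1 member and 56.2% with 4 or more.

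For 40.5% of the members the nearest tested peak was also a member, against 24.5% of the other tested peaks. Most members were not part of a group, and the median gap between neighbouring members was 96704 bp. Joining members with gaps of at most 12500 bp gave 383 stretches with 896 members (31.9%), and 25 stretches had 4 or more. The joining was not repeated for all tested peaks, so these counts have no background and do not measure grouping beyond that of tested peaks. The longest run, chr1:197082586-197124815, had 8 members in 42230 bp beside STIM1, the calcium sensor of the endoplasmic reticulum, RHOG, a small GTPase, and PGAP2. It carried 337 CPM in immune and 41.8 CPM in rest nuclei. STIM1 RNA was 18.7 CPM in immune and 17.0 CPM in rest nuclei, while RHOG had 16 UMIs (5.88 CPM) in immune nuclei and 0.242 CPM in rest nuclei. Among the 6 stretches with the most members, the ratio of summed signal between the sides was highest at chr8:3993706-4028517, beside RGS1, RGS13 and RGS21, genes for regulators of G-protein signalling. Its 6 members carried 251 CPM in immune and 12.3 CPM in rest nuclei, with ratios of 9.51 to 20.9. RGS1 RNA was 302 CPM in immune and 1.45 CPM in rest nuclei at E13, and 765 CPM in immune and 6.84 CPM in rest cells at E20. RGS13 had 9 UMIs in immune nuclei and RGS21 had 0 in both sides. Over the 29 chromosomes with at least 100 tested peaks, the share that were members ran from 11.0% on chromosome 33 to 34.4% on chromosome 1. On the others, 22 of 233 tested peaks were members, or 9.44%.

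The members lay farther from gene starts than other tested peaks, but not farther than distal peaks at large. Their median distance to the nearest listed start was 8465 bp, against 5529 bp for tested peaks under the ratio. Within 2000 bp lay 13.3% of members and 24.4% of the others. Over all 67549 distal peaks that the rule considered, the median was 10591.5 bp, and 11.1% lay within 2000 bp. The share of members among tested peaks was 17.4% up to 2000 bp, 24.9% up to 5000 bp, 31.5% up to 10000 bp, 31.5% up to 20000 bp and 36.9% up to 50000 bp. Signal moved with distance as well: from the nearest to the farthest class the median was 24.4 and 21.4 CPM in immune nuclei, and 15.1 and 9.20 CPM in rest nuclei. The part of peak height in the trend was not tested. Positive distances, which fell on the gene body's side in 92.4% of 22788 rows that could be checked, made up 62.3% of members and 55.9% of the others. A row inside a gene was listed for 18.2% of members and 16.7% of the others. The median width was 859 bp for members and 875 bp for the others. For 27 members the nearest start was over 50000 bp away, and they qualified by lying inside a gene.

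**Figure D2:**
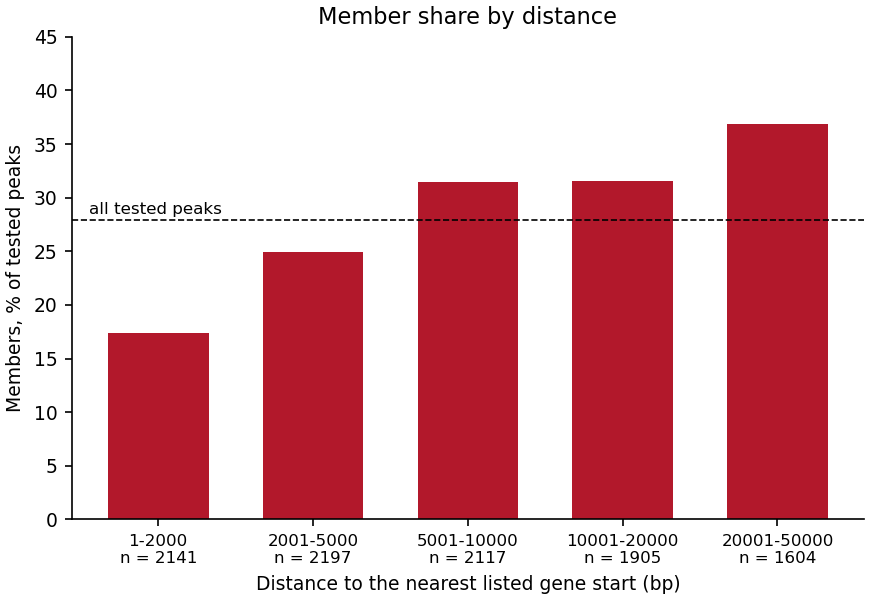
Share of tested distal peaks that were members (bars, in %) in 5 classes of distance to the nearest listed gene start, in bp, with the number of tested peaks under each bar. The share is 17.4% in the nearest class and 36.9% in the farthest, and the dashed line marks the share over all tested peaks.

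Nuclei that the rule left out give a reading of the members outside the sums that chose them. In the nuclei used, members held 8.23% of ATAC counts on the immune side and 1.18% on the rest side, values that the rule fixed in direction. Nuclei with under 500 genes were used on neither side. Among these, 11 with 4 or more UMIs of the 5 genes and at most 2 epithelial UMIs had 10.4% of their 18050 ATAC counts in members (9.97 to 10.9, exact Clopper-Pearson), and 1113 with 0 UMIs had 1.27% (1.26 to 1.29). Per nucleus the median was 10.9% in the 11 nuclei, with a range of 3.04 to 14.0%, and 1.12% in the 1113.

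Nuclei with 1 to 3 UMIs of the 5 genes were mixed. All 969 of them together had 1.16% of counts in members, the 822 with 1 UMI 1.15%, the 124 with 2 UMIs 1.13% and the 23 with 3 UMIs 2.25%. Per nucleus, the 23 had a median of 2.60% and an upper quartile of 8.34%, against medians of 1.03% for 1 UMI and 0.995% for 2 UMIs. A split by other immune genes, among those with at most 2 epithelial UMIs, gave 2.74% (2.69 to 2.78) in 38 nuclei with at least 4 UMIs of the 26 other immune markers and 1.34% (1.32 to 1.36) in 259 nuclei with 0. The 38 nuclei were spread from 0.816 to 10.2% with a median of 2.70%, and the 259 from 0 to 3.47% with a median of 1.12%. Nuclei with 4 or more UMIs of the 5 genes and over 2 epithelial UMIs numbered 58, and had 2.59% of counts in members. These 58 had a median of 17295.5 UMIs, against 4619.5 in immune nuclei. Doublets were not called, and their part in these intermediate values was not tested. Within the immune nuclei the share was 6.30% at 4 to 7 UMIs, 8.05% at 8 to 19 and 8.65% at 20 or more. Unlike the groups above, these nuclei chose the members, so their shares are a description. Those with 20 or more UMIs gave 1440162 of the 2336020 immune ATAC counts that the rule summed.

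**Figure D3:**
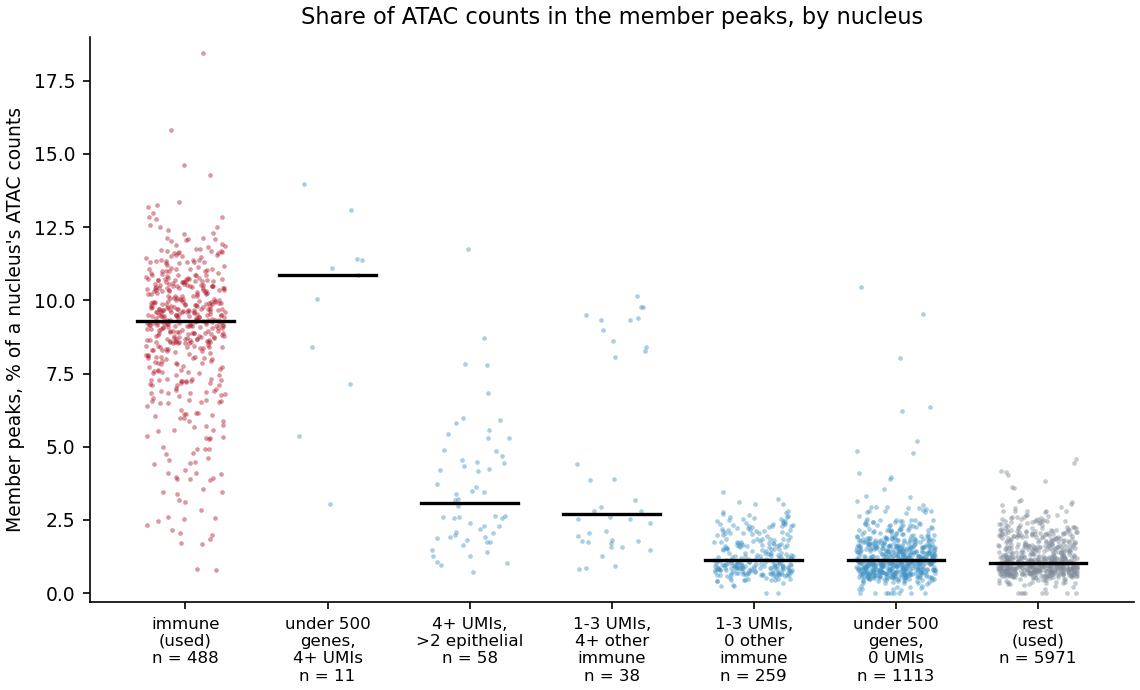
Share of a nucleus's ATAC counts that fell in the member peaks, in %, 1 point per nucleus (at most 600 drawn per group) with the group median as a bar. Immune and rest nuclei chose the members, and the 5 groups between them did not enter the rule; the 11 small nuclei with 4 or more UMIs lie at 3.04 to 14.0%, and the 259 with 1 to 3 UMIs and no other immune UMI at 0 to 3.47%.

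Per nucleus, the sides that chose the members can only be described, since the rule set them apart. The median immune nucleus had 154.5 members open and the median rest nucleus 21. The 5th percentile of immune nuclei was 4.01%, and 14 of 5971 rest nuclei (0.234%) reached it. In these 14 nuclei endothelial markers summed to 3193 CPM, against 384 CPM over all rest nuclei. The 26 other immune markers summed to 526 CPM in the 14 nuclei and 123 CPM over all rest nuclei. Lymphoid markers summed to 707 CPM in the 14 and 203 CPM over all, and pattern receptor and uptake genes to 508 and 155 CPM. Mesenchymal markers were also higher in the 14, at 1741 and 1229 CPM, as were thrombocyte markers, at 599 and 290 CPM. So were cytokine and receptor genes, at 907 and 424 CPM, blood transcription factors, at 2939 and 2559 CPM, and erythroid markers, at 435 and 334 CPM. Lower in the 14 were antigen presentation genes, at 200 and 229 CPM, and leukocyte signalling genes, at 1070 and 1098 CPM. Granulocyte markers, at 0 and 5.03 CPM, and epithelial markers, at 907 and 2903 CPM, were lower as well. With only 14 nuclei, the small differences and the sum of 0 CPM cannot be judged. What these nuclei are was not tested. Their median depth was 793 ATAC counts. The 95th percentile of rest nuclei was 2.52%, and 10 of 488 immune nuclei (2.05%) were at or below it.

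The rest is a mixture, so the members were read in 3 of its classes, each with 4 or more UMIs of its markers and 0 UMIs of the 5 genes. Over all members the median signal was 25.7 CPM in immune nuclei, 3.71 CPM in 165 endothelial nuclei, 4.57 CPM in 1047 mesenchymal nuclei and 2.13 CPM in 868 epithelial nuclei. For other tested peaks the medians were 21.0, 17.6, 17.5 and 15.2 CPM in the same order. A member reached at least 50% of its immune signal in endothelial nuclei in 473 cases (16.8%), in mesenchymal nuclei in 332 (11.8%) and in epithelial nuclei in 1. In 57 cases this held for both endothelial and mesenchymal nuclei, and for 2059 members (73.3%) it held in none of the 3 classes. Among other tested peaks the 50% level was reached by 75.5% in endothelial, 78.7% in mesenchymal and 69.3% in epithelial nuclei. The 3 classes are part of the rest, so the rule itself kept their signal low in the members, and these shares are a description. With only 165 endothelial nuclei, 438 members had 0 counts there, against 13 in mesenchymal and 53 in epithelial nuclei, so levels of single members in endothelial nuclei are coarse.

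Members shared with another class could be named. At DUSP6, a phosphatase that switches off ERK, chr1:43320925-43321853 had 104 CPM in immune, 108 CPM in endothelial, 22.3 CPM in mesenchymal and 11.6 CPM in epithelial nuclei. At GP5, which encodes a platelet glycoprotein, chr9:13060018-13060907 had 52.7 CPM in immune and 76.9 CPM in endothelial nuclei. At EXOC6, an exocyst subunit, a member had 19.3 CPM in immune, 64.9 CPM in endothelial and 0.731 CPM in mesenchymal nuclei. These 3 were thus as high or higher in endothelial than in immune nuclei, although their ratios over the whole rest were 4.70, 4.46 and 4.09. The member of PDK4, a kinase that limits pyruvate oxidation, had 73.2 CPM in immune and 43.5 CPM in mesenchymal nuclei. At the other end, the strongest CD83 member had 0 counts in endothelial and epithelial nuclei and 8 in mesenchymal nuclei. The TNFAIP3, ANKRD13A, TLE4 and TMEM86A members also had 0 counts in endothelial nuclei, where 3 counts correspond to 2.78 CPM. The shared members were named by their signal in these classes, after the values were seen.

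**Figure D4:**
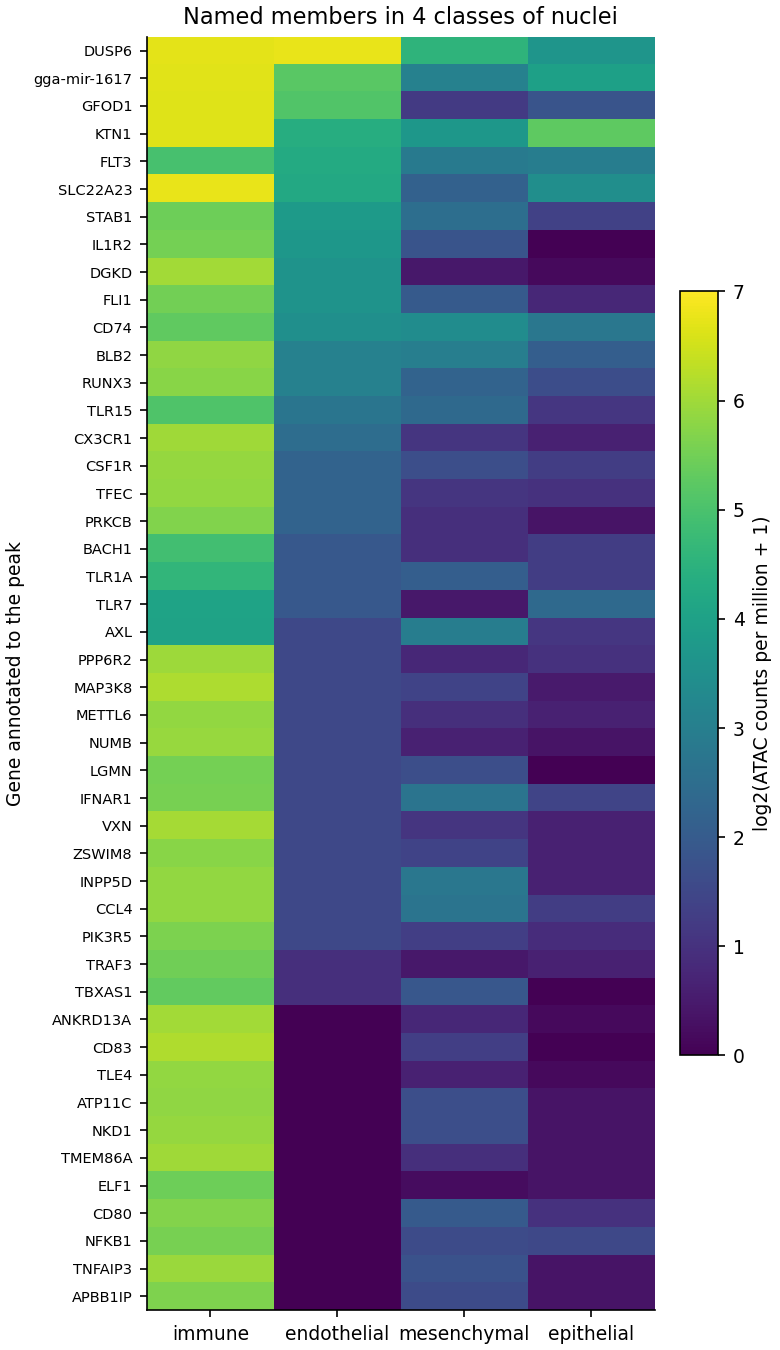
ATAC signal of 46 named members, as log2 of CPM plus 1 (colour), in immune, endothelial, mesenchymal and epithelial nuclei, ordered by endothelial signal. DUSP6, at the top, is bright in immune and endothelial nuclei, and the lowest rows, CD83 and TNFAIP3 among them, have 0 counts in endothelial nuclei.

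RNA of the annotated genes was compared between the sides, for genes with 10 CPM or more in the higher side and with 1 CPM added before the log2 ratio. At E13 the same nuclei chose the members, so the values are a description. Over all 8107 genes the share at least 2-fold higher in immune nuclei was 11.1% and the share at least 2-fold lower 24.7%, with a median log2 ratio of -0.45. Of 1420 genes with a member, 393 (27.7%) were higher and 183 (12.9%) lower, with a median of 0.07. Genes with a tested peak but no member had 9.61% higher, with a median of -0.47. The share higher was 23.1% with 1 member, 31.7% with 2, 50.6% with 3 and 56.2% with 4 or more. Genes with more members also had more tested peaks, with a median of 2 for 1 member and 5 for 4 or more. Among genes with exactly 1 tested peak, 23.9% of 457 genes were higher where that peak was a member and 8.07% of 1449 where it was not.

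The E20 epithelial library did not enter the rule. The same UMI limits gave 307 immune cells with 1150578 UMIs and 4772 rest cells with 21942994 UMIs there. The marker sums of these immune cells differed from those of the E13 immune nuclei. Thrombocyte markers summed to 4473 CPM in immune and 590 CPM in rest cells. Lymphoid markers summed to 819 CPM in immune and 76.5 CPM in rest cells, and granulocyte markers to 1323 and 49.2 CPM. Most of the granulocyte sum in immune cells came from RSFR, with 908 CPM in immune and 3.33 CPM in rest cells. Over 8225 genes the share at least 2-fold higher in immune cells was 20.1%, the share at least 2-fold lower 15.2%, and the median log2 ratio 0.22. Of 1321 genes with an E13 member, 473 (35.8%) were higher and 125 (9.46%) lower, with a median of 0.59. The share higher was 33.2% with 1 member, 39.9% with 2, 45.6% with 3 and 55.6% with 4 or more. With exactly 1 tested peak it was 35.3% of 470 genes where the peak was a member and 19.4% of 1481 where it was not. Rest cells of this library held 69864 CPM of erythroid markers, against 7205 CPM in its immune cells, and leaving out haemoglobin genes gave 32.4% for genes with a member and 17.7% for all genes. The stage, the assay, the sort and the marker make-up of the immune side differ between the libraries, and their effects cannot be told apart. The labels give nuclear RNA for the E20 epithelial library too, although they describe sorted cells, so whether its barcodes are cells or nuclei is not settled. In the CD45neg library 7 cells passed as immune, too few for a comparison.

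**Figure D5:**
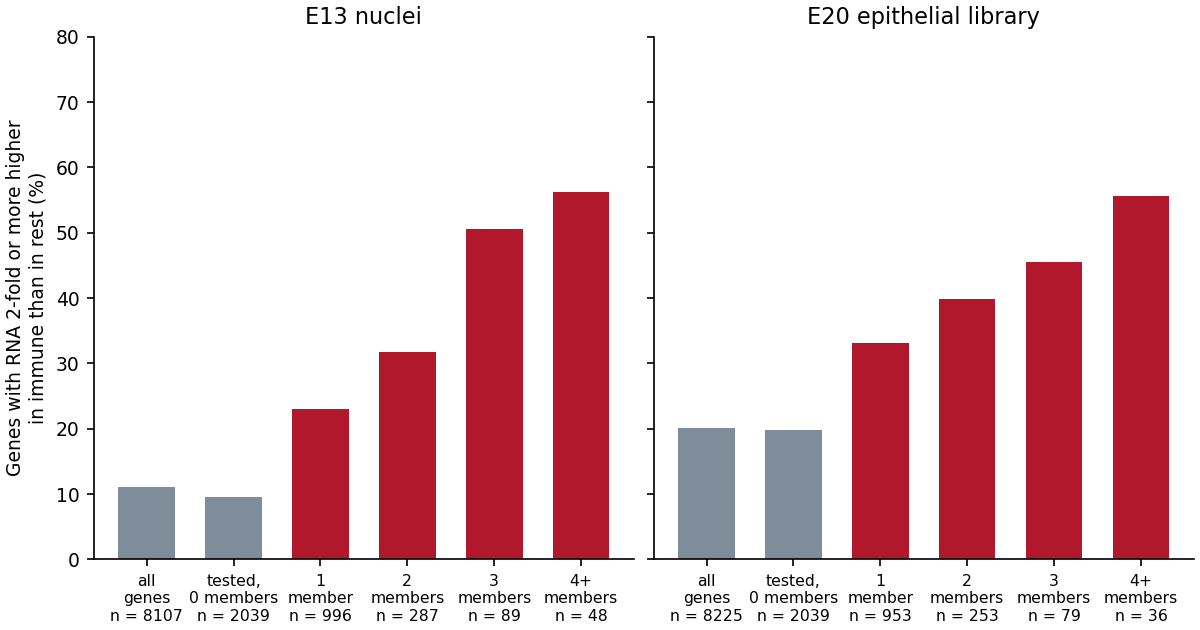
Share of genes, in %, whose RNA was at least 2-fold higher in immune than in rest nuclei at E13 (left) and in immune than in rest cells of the E20 epithelial library (right), by the number of members annotated to the gene, with the number of genes under each bar. Grey bars are all genes and genes with a tested peak but no member; the bar for 4 or more members stands at 56.2% at E13 and 55.6% at E20.

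Of 1142 genes with a member that were measured in both libraries, 246 (21.5%) were at least 2-fold higher in immune cells at both stages. The share was 9.20% over all 6389 genes measured in both and 8.08% over 1622 genes with a tested peak and no member. The E13 ratios enter this count, so it is a description. Another 75 were higher at E13 and within 2-fold at E20, and 4 were higher at E13 and at least 2-fold lower at E20. BIRC3, an inhibitor of apoptosis in the NF-kB pathway, with 4 members, had 530 CPM in immune and 11.7 CPM in rest nuclei at E13, and 827 CPM in immune and 76.3 CPM in rest cells at E20. CH25H, which makes 25-hydroxycholesterol, had 4 members of 4 tested peaks and log2 ratios of 4.42 at E13 and 4.37 at E20. BTBD11, also with 4 members, had 20.2 CPM in immune and 85.7 CPM in rest nuclei at E13.

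Promoter peaks with 30 or more immune counts reached a ratio of 3 in 364 of 9367 cases (3.89%), against the 27.9% of distal peaks. Among promoter peaks of genes with a member the share was 8.84% (148 of 1675), and 3.60% (83 of 2308) for genes with a tested distal peak and no member. For genes with 4 or more members it was 25%, or 12 of 48 promoter peaks. These ratios come from the contrast that chose the members. The limit of 30 counts was set on immune nuclei alone, and 10059 of 67549 distal peaks passed it. Peaks with weak rest signal could enter only through their immune signal. The gap between promoter and distal peaks depends on this limit and was not tested.

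At the limits of the rule the values ran on without a gap. The members with the lowest ratios, at DOCK2, CTPS1 and ENSGALG00000037111, had ratios of 3.002, 3.002 and 3.008, with 44, 44 and 52 immune counts. The peaks just outside, at SERINC2, ENSGALG00000046837 and INPP5A, had ratios of 2.999, 2.998 and 2.997. In all, 93 members had ratios under 3.1 and 87 tested peaks ratios from 2.9 to 3. At the count limit, 33 members had 30 immune counts, among them HSF4 with a ratio of 6.43, and 53 peaks with 29 counts had ratios of 3 or more, among them TSSC1, LRMDA and MEF2A with 8.65, 6.31 and 6.08.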

How the data were processed

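The deposited matrices of the authors hold raw counts: UMI counts of genes and, for E13, ATAC counts of peaks. They were made, per the file headers, with cellranger-arc 2.0.0 (E13) and cellranger 4.0.0 (E20), and the genome build is galGal6 per the submitters' processing notes. The deposited peak annotation gives each peak's gene, its distance and its type. How barcodes were selected is not given in the sources used here. Peak starts were moved by 1 to count from 1. E20 genes were matched to E13 by gene ID. Sums were scaled to CPM of each side, with python 3.11.15, numpy 2.4.6, scipy 1.17.1 and pandas 2.3.3, and the ratio calculation was tested on simulated data. Each group is 1 library, so there is no test, and intervals (exact Poisson for counts, exact Clopper-Pearson for shares, 95%) cover counting error only, and are too narrow for ATAC counts, which came mostly in pairs. Cells are not replicates, and doublets were not called. The member rule, the gene lists and the other choices were made with earlier results of these data known. Members named in the text are the 15 with the highest ratios and a gene symbol, the 5 with the most immune counts, those of the 5 rule genes and of the 6 genes with the most members, the strongest of up to 6 genes per list, and 3 on each side of each limit. Members of other genes were named after their values were seen. A planned search for transcription factor motifs was not run, since no genome sequence of this build was used here. Alternatives changed the limits of the rule, the scaling, the nuclei used and the RNA minimum. Of the 4 genes with opposite RNA ratios in the E13 and E20 libraries, 1 is not reported here.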

Additional observations from a re-analysis of the deposited data

Results flagged for a closer look

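In TIMP4, FILIP1 and RASGRP3, which have members, the RNA ratio of immune over rest had opposite signs in the E20 epithelial and the E13 library, and the difference was not tested. TIMP4, an inhibitor of metalloproteinases with 2 members, had a log2 ratio of -3.59 at E20, where immune cells had 0 UMIs and rest cells 11.03 CPM, and of 2.66 at E13, with 36.0 CPM in immune and 4.84 CPM in rest nuclei. FILIP1, with 1 member, had -1.53 at E20 and 1.37 at E13. RASGRP3, with 2 members, had -1.26 at E20, where 10 UMIs were seen in immune cells, and 1.41 at E13.

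Nuclei with under 500 genes were left out of the rule and still carried a signal. Members held 10.4% of ATAC counts in the 11 with 4 or more UMIs of the 5 genes, and 1.27% in the 1113 with 0 UMIs.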

How the results depend on the processing

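The count of 2808 members moved by over 1.5 times under 5 of 18 alternatives: 122 with at most 40% mitochondrial UMIs (67 immune nuclei left), 1851 with at least 50 immune counts, 4279 with a ratio of at least 2, 1543 with a ratio of at least 5, and 1729 with 5 CPM added. In those 67 nuclei only 102 members reached 30 counts, 101 of them with a ratio of 3 or more, and 2219 members (79.0%) had that ratio at any count. Of all distal peaks that the rule considered, 607 reached 30 counts there, and 12 members had 0 counts. The 67 nuclei were part of the sums that chose the members, so the high shares follow from the rule and are a description. The other 13 alternatives gave 2118 to 3165 members. Defining immune nuclei by the 26 other immune genes gave 2810 members, of which 2136 were shared. This setting, those without mitochondrial or haemoglobin genes and those of the nearest peak were chosen after seeing the data.

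The share of linked genes at least 2-fold higher at E13 (27.7%, all genes 11.1%) was 33.8% at a minimum of 50 CPM (all genes 16.7%), 21.9% without a minimum (6.64%), 23.7% with 10 CPM added (8.70%) and 31.8% without mitochondrial genes (12.9%). At E20 (35.8%, all genes 20.1%) it was 43.2%, 28.2% and 27.8% under the first 3 settings (24.6%, 13.5% and 14.3%), 31.9% with 2 or more UMIs (17.7%) and 32.4% without haemoglobin genes (17.7%). The share of counts in members at 1 to 3 UMIs was 1.13% with 1000 genes or more and 1.23% with at most 40% mitochondrial UMIs. Genes with 2 or more members made up 29.3% at a ratio of 2 and 17.3% at 5. The nearest tested peak was a member for 52.5% and 25.8% of members at those ratios, where 42.5% and 15.3% of tested peaks were members. The endothelial median was 5.24 CPM in 73 nuclei with 8 or more marker UMIs. The cause of these shifts was not tested.

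Not run were the PU.1 motif search, for lack of a genome here, and the E20 CD45neg comparison, with 18 cells at 2 or more UMIs. No paired analysis was possible because each group is 1 library. Depth limits the set: a peak needed 30 counts in 488 nuclei, so 57490 peaks could not be judged.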
